A study of Mus musculus with 10 samples.

Results

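The mouse genes named Zfp followed by a number encode zinc finger proteins, and their expression is described here in 3 kinds of cultured cells. A gene was taken when its single platform symbol was Zfp followed by digits alone, Zfp42 left out, and when its mean reached a log2 signal of 7 in at least 1 of the 3 groups of arrays. Of 18193 genes with a single symbol, 304 carried such a symbol, and 207 of these 304 reached that floor. Zfp42 (Rex1), left out by the rule as a marker of pluripotent cells, averaged a log2 signal of 12.44 in the iPS-derived NSC arrays by label, against 3.54 in the iPS arrays and 3.5 in the brain NSC arrays.

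The study put Oct4 alone into adult neural stem cells (NSC) and compared 3 kinds of cells on 10 Affymetrix arrays, with 1 total RNA sample on each. The 3 arrays labelled iPS-derived NSC held, per the labels, neural stem cells differentiated from one-factor induced pluripotent stem (iPS) cells. The 3 arrays labelled iPS held iPS cells that had been made from adult brain NSC with a pMX-based retrovirus carrying mouse Oct4 cDNA, picked as Oct4-GFP-positive colonies and grown with LIF on irradiated embryonic fibroblasts (MEF). The 4 arrays labelled brain NSC held uninfected NSC of adult mouse brain. Cells of all 3 groups trace to 1 cross, of ICR females with OG2 Rosa26 neo/lacZ mice that carry an Oct4-eGFP transgene, so the controls carry both transgenes too. The labels do not say whether replicates came from separate animals, colonies or cultures, and p-values here measure only the spread between these samples.

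The marker genes went against 2 of the group labels. All 8 pluripotency markers, Pou5f1 (Oct4) and Nanog among them, reached the floor in the arrays labelled iPS-derived NSC, where their mean log2 signal per array was 12.04 to 12.19, against 4.68 to 4.73 in the arrays labelled iPS and 4.70 to 4.81 in those labelled brain NSC. The 8 measured neural stem cell markers averaged 6.05 to 6.10 in the arrays labelled iPS-derived NSC, 11.65 to 11.74 in those labelled iPS and 11.48 to 11.78 in those labelled brain NSC. The labels were kept as deposited, and each group is called by its label throughout, so every direction below rests on labels that the markers contradict. Among 10 fibroblast markers, 6 were higher and 1 was lower in the labelled iPS-derived NSC over brain NSC, beside 11.3% and 14% of all genes. Their mean log2 signal per array was 5.77 to 6.78 in the labelled iPS-derived NSC, 5.05 to 5.15 in the labelled iPS and 5.03 to 5.12 in brain NSC. RMA values have no zero, so no marker can be listed as absent, and the part of feeder cells in the results below was not tested. In such bulk samples fewer cells of a type and less RNA per cell cannot be told apart.

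Zinc finger proteins of this kind read DNA through arrays of tandem fingers, and in mouse a large share of them join the fingers to a KRAB domain. The KRAB domain recruits the corepressor Trim28 (KAP1), which brings the histone methyltransferase Setdb1, heterochromatin protein 1 and DNA methylation to the bound site. Proteins of this class are known for silencing retroviruses and transposable elements and for keeping imprints in pluripotent cells, and their genes lie in tandem clusters. Other genes with the same naming scheme have no KRAB domain and act in development, RNA metabolism or the ribosome.

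Windows around the annotated starts of 7 genes are shown, as pairs of related windows and as 1 window picked for an octamer match. The octamer is no trait of the set, with a match in 1.84% of its windows against 1.74% of all windows. RefSeq windows of the build GRCm38.p6, running from 250 bases before to 50 bases after a start, were matched for 170 of the 207 genes and came to 217 windows. Capitals mark runs of at least 15 bases that also occur in the window of the partner gene. The pair Zfp979 (chr4:147642459-147642758, minus strand) and Zfp982 (chr4:147492167-147492466, plus strand, 1 of its 3 windows) held the 2 genes with the largest rises, and 269 of 317 aligned positions were identical (84.9%).
Zfp979: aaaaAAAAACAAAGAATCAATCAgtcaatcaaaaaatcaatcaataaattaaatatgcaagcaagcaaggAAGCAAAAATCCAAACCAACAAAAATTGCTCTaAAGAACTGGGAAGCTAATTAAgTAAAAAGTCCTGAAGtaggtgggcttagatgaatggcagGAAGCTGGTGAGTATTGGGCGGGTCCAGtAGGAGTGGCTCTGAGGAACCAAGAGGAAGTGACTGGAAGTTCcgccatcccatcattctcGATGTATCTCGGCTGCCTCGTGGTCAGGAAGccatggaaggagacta
Zfp982: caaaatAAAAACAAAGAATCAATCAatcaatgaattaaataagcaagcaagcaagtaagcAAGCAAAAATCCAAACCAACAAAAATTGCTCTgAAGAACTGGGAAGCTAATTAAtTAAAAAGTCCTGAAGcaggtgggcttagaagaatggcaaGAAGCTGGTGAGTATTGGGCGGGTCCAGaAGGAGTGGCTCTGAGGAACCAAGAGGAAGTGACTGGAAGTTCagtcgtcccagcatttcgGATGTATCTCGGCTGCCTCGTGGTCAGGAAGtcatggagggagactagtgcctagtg

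Zfp936 (chr7:43177340-43177639, plus strand) and Zfp975 (chr7:42692669-42692968, minus strand) are neighbours on chromosome 7 that were both higher in the labelled iPS-derived NSC. Their windows were identical at 222 of 349 aligned positions (63.6%), and the shared runs cover 114 bases of each.
Zfp936: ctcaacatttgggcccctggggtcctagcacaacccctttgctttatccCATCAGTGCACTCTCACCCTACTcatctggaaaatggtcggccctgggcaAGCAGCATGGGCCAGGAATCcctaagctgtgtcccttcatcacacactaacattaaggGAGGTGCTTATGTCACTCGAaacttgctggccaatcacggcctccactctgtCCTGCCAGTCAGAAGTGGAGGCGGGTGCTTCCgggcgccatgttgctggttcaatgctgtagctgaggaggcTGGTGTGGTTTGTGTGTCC
Zfp975: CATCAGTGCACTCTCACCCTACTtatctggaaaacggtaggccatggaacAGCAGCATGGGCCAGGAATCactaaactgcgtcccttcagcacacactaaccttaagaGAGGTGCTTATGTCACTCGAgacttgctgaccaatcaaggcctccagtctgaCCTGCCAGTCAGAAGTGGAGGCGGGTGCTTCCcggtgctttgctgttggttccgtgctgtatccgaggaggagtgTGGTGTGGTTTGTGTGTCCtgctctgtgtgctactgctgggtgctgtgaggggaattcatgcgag

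Zfp758 (chr17:22361213-22361512, plus strand) and Zfp943 (chr17:21962309-21962608, plus strand) belong to a chromosome 17 cluster of 22 genes, 3 of which, Zfp758 among them, were called lower in the labelled iPS over brain NSC. Their windows were identical at 292 of 308 aligned positions (94.8%), the closest pair among all windows of the 207 genes. The 2 windows overlap those of Zfp944 and Zfp942, a pair with 84.3% identity.
Zfp758: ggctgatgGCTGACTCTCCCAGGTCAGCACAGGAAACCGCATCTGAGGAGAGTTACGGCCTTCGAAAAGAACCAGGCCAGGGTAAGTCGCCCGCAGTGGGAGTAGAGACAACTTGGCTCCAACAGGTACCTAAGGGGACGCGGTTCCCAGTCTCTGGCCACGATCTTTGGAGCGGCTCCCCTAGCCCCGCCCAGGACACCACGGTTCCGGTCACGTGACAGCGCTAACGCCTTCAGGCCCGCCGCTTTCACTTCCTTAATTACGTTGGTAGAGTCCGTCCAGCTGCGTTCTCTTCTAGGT
Zfp943: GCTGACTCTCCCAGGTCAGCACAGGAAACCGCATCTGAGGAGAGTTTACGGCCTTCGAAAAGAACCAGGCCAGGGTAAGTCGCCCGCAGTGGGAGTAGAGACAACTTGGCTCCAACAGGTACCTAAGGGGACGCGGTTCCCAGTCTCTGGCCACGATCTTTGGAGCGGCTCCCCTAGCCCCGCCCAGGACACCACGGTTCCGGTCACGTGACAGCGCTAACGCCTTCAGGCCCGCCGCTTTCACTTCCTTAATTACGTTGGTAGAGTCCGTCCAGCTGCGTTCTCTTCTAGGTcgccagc

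Zfp296 (chr7:19577037-19577336, plus strand) was the member with a pluripotency role whose window held the octamer ATGCAAAT, the letters that Oct4 is known to bind, here on the opposite strand and shown in capitals.
Zfp296: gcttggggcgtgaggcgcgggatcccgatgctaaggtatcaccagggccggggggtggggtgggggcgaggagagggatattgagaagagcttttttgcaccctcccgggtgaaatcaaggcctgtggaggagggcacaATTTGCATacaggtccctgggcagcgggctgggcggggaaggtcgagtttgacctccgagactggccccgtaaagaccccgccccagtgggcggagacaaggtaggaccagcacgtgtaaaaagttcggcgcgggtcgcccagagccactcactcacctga
Searched on both strands, this octamer was found in 4 of the 217 windows (1.84%), against 570 of 32851 windows of all genes (1.74%). The 4 genes were Zfp207, Zfp263, Zfp296 and Zfp428, and a match describes letters only. The count of CG pairs per window had a median of 17 in the windows of the set, against 7 over all windows. These sets are unlike, since all 207 genes are protein-coding and reach the floor, while the windows of all 27025 genes had no such limit. The medians therefore show no trait of Zfp genes. Within the set, the median count was 13 in the 49 windows of the 39 genes called higher over brain NSC. It was 20 in the 47 windows of the 34 genes called lower and 17 in the 121 windows of genes not called. The quartiles overlapped, from 6 to 18 for genes called higher and from 12 to 32 for genes called lower. The floor helped choose these genes, and the same split over all genes was not made. No trait of rising or falling Zfp genes can therefore be read from these medians.

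The floor sorts the 207 genes by where their signal lay, which is a description since the rule used these means. All 3 groups reached the floor for 117 genes. The 2 groups labelled iPS and brain NSC alone reached it for 38 genes, among them Zfp521, Zfp362, Zfp703 and Zfp503. The labelled iPS-derived NSC alone reached it for 33, among them Zfp979, Zfp982, Zfp936, Zfp991, Zfp819, Zfp296 and Zfp57. Brain NSC alone reached it for 8 genes, the labelled iPS alone for 4, the labelled iPS-derived NSC with iPS for 4 and the labelled iPS-derived NSC with brain NSC for 3. The genes just inside the floor by their highest group mean were Zfp408 (7.0), Zfp11 (7.01) and Zfp865 (7.06), and those just outside were Zfp467 (7.0, under 7 before rounding), Zfp846 (6.98) and Zfp446 (6.98).

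Replicates were close together. The SD of a gene's log2 signal had a median over the 207 genes of 0.129 in the labelled iPS-derived NSC, 0.105 in the labelled iPS and 0.188 in brain NSC. The brightest members were Zfp622, Zfp207 and Zfp330. Zfp622 (a factor of large ribosomal subunit maturation) had log2 signals of 12.43, 12.66 and 12.57 in the labelled iPS-derived NSC, 10.98, 10.94 and 10.99 in the labelled iPS and 11.74, 11.41, 11.40 and 10.87 in brain NSC. Zfp207 (BuGZ, a spindle assembly protein) and Zfp330 differed by less than 2-fold in every comparison, Zfp207 with means of 11.92, 11.32 and 11.74 and Zfp330 with 11.20, 11.15 and 10.87 in the labelled iPS-derived NSC, the labelled iPS and brain NSC. The members with the lowest mean over the 10 arrays were Zfp936, Zfp820 and Zfp52, and Zfp52 averaged 7.07 in the labelled iPS-derived NSC, 4.17 in the labelled iPS and 4.81 in brain NSC. A signal is that of 1 probe set and does not rank transcripts of different genes.

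Differences were tested with limma over all 18193 genes, and calls required both an adjusted p under 0.05 and a 2-fold difference or more. Counts are given over the 304 genes chosen by symbol alone, because the floor uses the levels that the comparisons use. In the labelled iPS-derived NSC over brain NSC, 54 of the 304 genes rose (17.8%) and 48 fell (15.8%), against 11.3% higher and 14% lower among all genes. Calls in either direction came to 33.6% of the 304 and 25.4% of all genes. Among genes with a mean of at least 7 over the 10 arrays, 28 of 163 rose (17.2%, against 12.4% of all such genes) and 35 fell (21.5%, against 23.3%). Calls in either direction came to 38.7% against 35.7%. The shares of rises and of calls in either direction thus lie closer together, whereas the share of falls changed sides. Most of the 10 arrays are of the other groups, so this filter more readily drops genes bright in the labelled iPS-derived NSC alone. The median difference was 0.12 log2 units over the 304 genes and 0.13 over all genes.

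In the labelled iPS-derived NSC over iPS, 59 of the 304 rose (19.4%) and 49 fell (16.1%), against 10.8% higher and 14.4% lower among all genes, and 35.5% against 25.3% in either direction. At a mean of at least 7, 29 of 163 rose (17.8%, against 11.1%) and 36 fell (22.1%, against 24.5%), 39.9% in either direction against 35.5%. The comparisons over brain NSC and over iPS share the 3 labelled iPS-derived NSC arrays, so their values are not independent and are given side by side. In the labelled iPS over brain NSC, 2 of the 304 rose (0.658%, against 0.951%) and 6 fell (1.97%, against 0.89%), 2.63% in either direction against 1.84% of all genes. At a mean of at least 7, 2 of 163 rose (1.23%, against 1.47%) and 2 fell (1.23%, against 0.949%), 2.45% in either direction against 2.42%. The 2 rises came to 4 without brain NSC array 4, and to 1 without iPS array 1 or 3 or brain NSC array 1, 2 or 3. The median difference there was -0.03 log2 units, against 0.01 over all genes.

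**Figure D1:**
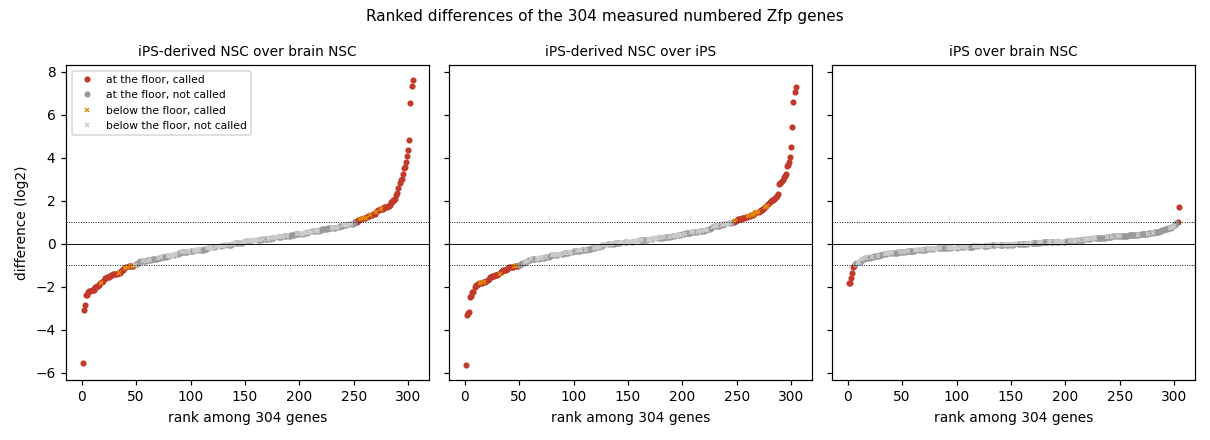
Differences (log2 units) of the 304 measured numbered Zfp genes, ranked within each comparison, with 1 point per gene and dotted lines at 2-fold. The 2 panels with the labelled iPS-derived NSC reach from -5.66 to 7.64, whereas the panel of iPS over brain NSC stays between -1.84 and 1.70.

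The largest rises were those of Zfp979, Zfp982 and Zfp936, with Zfp991 next, genes of chromosomes 4 and 7 that were dim in both other groups. Zfp979 had log2 signals of 11.04, 11.05 and 10.87 in the labelled iPS-derived NSC, 4.05, 3.80 and 3.95 in the labelled iPS and 3.47, 3.25, 3.47 and 3.19 in brain NSC. All 3 first-named arrays lay far above the other 7, whose signals were under the lower quartile of their arrays (4.22 to 4.28). The difference over brain NSC was 7.64 ± 0.10 log2 units (SE, adjusted p = 1.5e-15 by limma) and over the labelled iPS 7.06 ± 0.11. Its window partner Zfp982 had 10.68, 10.95 and 10.71, against 3.60, 3.38 and 3.46 in the labelled iPS and 3.55, 3.34, 3.44 and 3.46 in brain NSC, a difference of 7.33 ± 0.10 over brain NSC and 7.30 ± 0.11 over iPS. The brightest probe set of Zfp982 can cross-hybridise, and 2 further probe sets of the gene were also called higher over brain NSC, by 2.88 and 4.09 log2 units.

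Zfp936 on chromosome 7 had log2 signals of 10.24, 10.29 and 9.94 in the labelled iPS-derived NSC, 3.63, 3.57 and 3.53 in the labelled iPS and 3.52, 3.57, 3.98 and 3.43 in brain NSC. The difference was 6.53 ± 0.13 log2 units over brain NSC and 6.58 ± 0.14 over iPS. Zfp975, its neighbour with the related window, rose less, by 3.24 ± 0.12 over brain NSC and 3.65 ± 0.13 over iPS, with 3-array means of 9.51 in the labelled iPS-derived NSC and 5.86 in the labelled iPS and a 4-array mean of 6.27 in brain NSC. Zfp991, another gene of chromosome 4, had 10.24, 10.30 and 10.15, against 4.83, 4.70 and 4.77 in the labelled iPS and 5.43, 5.38, 5.52 and 5.16 in brain NSC. Its difference over brain NSC was 4.85 ± 0.10, a second probe set gave 4.11, and the dimmest gave 0.13 and was not called. RMA compresses differences among dim signals such as these, so the folds are not exact.

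Zfp961 (3.54 ± 0.09 log2 units over brain NSC and 3.10 ± 0.10 over iPS) and Zfp934 (2.83 ± 0.13 and 3.63 ± 0.14) rose on their brightest probe sets, with a brighter signal in all 3 labelled iPS-derived NSC arrays than in the other 7. The dimmer probe set of Zfp961 gave 0.21 over brain NSC and 0.03 over iPS, and that of Zfp934 0.67 and 0.87, with no call. Zfp473 is known in human for a part in histone messenger RNA processing. It had 9.11, 8.61 and 9.24 in the labelled iPS-derived NSC, 5.08, 5.32 and 5.20 in the labelled iPS and 5.48, 5.48, 5.53 and 5.15 in brain NSC, a rise of 3.58 ± 0.15 over brain NSC and 3.79 ± 0.16 over iPS.

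**Figure D2:**
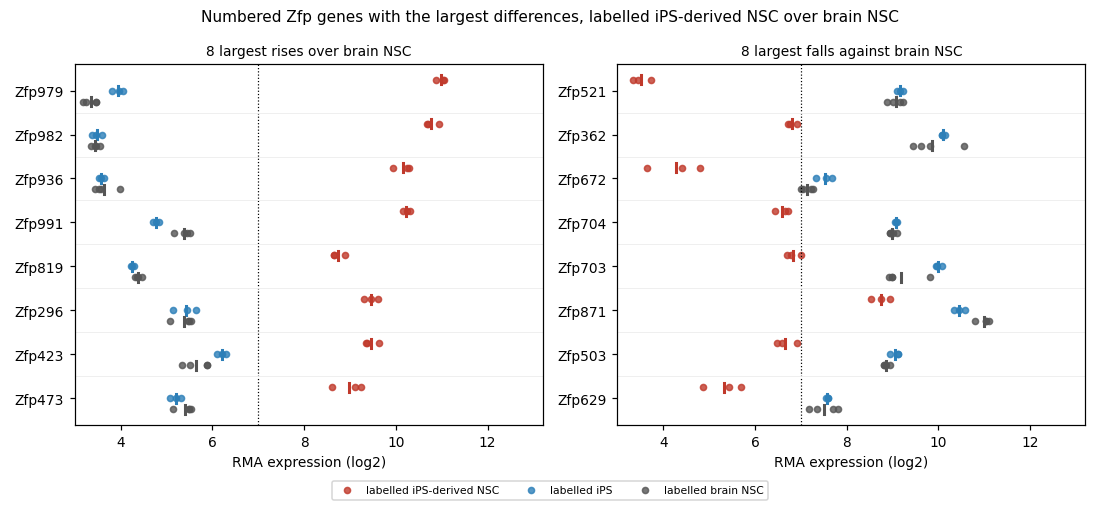
RMA log2 signal of the 8 genes with the largest rises and the 8 with the largest falls in the labelled iPS-derived NSC over brain NSC, with 1 point per array, ticks at group means and a dotted line at the floor of 7. In each of these genes the 3 labelled iPS-derived NSC arrays stand apart from all 7 others. Their separation from brain NSC was set by the choice, which took only called genes without overlap between these groups.

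The largest fall was that of Zfp521, a factor known to drive neural differentiation of mouse embryonic stem cells. Its log2 signals were 3.45, 3.73 and 3.34 in the labelled iPS-derived NSC, 9.16, 9.11 and 9.22 in the labelled iPS and 9.16, 9.23, 9.0 and 8.88 in brain NSC. The 3 labelled iPS-derived NSC arrays lay at the dim end while the other 7 all lay between 8.88 and 9.23, and the difference was -5.56 ± 0.11 over brain NSC (adjusted p = 5.73e-14 by limma) and -5.66 ± 0.12 over iPS. A second, dimmer probe set of Zfp521 differed by -0.97 over brain NSC and was not called.

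Zfp362 had 6.93, 6.72 and 6.76 in the labelled iPS-derived NSC, 10.08, 10.07 and 10.15 in the labelled iPS and 9.82, 9.44, 9.62 and 10.57 in brain NSC. Brain NSC array 4 was the highest of the 10, and the difference was -3.06 ± 0.20 log2 units over brain NSC and -3.30 ± 0.21 over iPS. Zfp672 fell by 2.85 ± 0.21 over brain NSC with the widest spread of any of the 207 genes in the labelled iPS-derived NSC, at 3.64, 4.41 and 4.80, against 7.55, 7.34 and 7.67 in the labelled iPS and 7.04, 7.21, 7.0 and 7.27 in brain NSC. Its groups did not overlap, which the choice of the largest falls required.

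Zfp703 and Zfp503 are related repressors, and Zfp503 is known from development of the striatum. Zfp703 had 6.69, 6.79 and 7.0 in the labelled iPS-derived NSC, 9.97, 9.95 and 10.07 in the labelled iPS and 8.99, 8.92, 9.0 and 9.82 in brain NSC. Brain NSC array 4 stood above the other 3, and the difference was -2.36 ± 0.18 over brain NSC and -3.17 ± 0.19 over iPS. Neither of its 2 dimmer probe sets was called over brain NSC (0.20 and 0.02). Zfp503 had 6.58, 6.49 and 6.91, against 9.12, 8.94 and 9.13 in the labelled iPS and 8.81, 8.85, 8.82 and 8.93 in brain NSC, called lower with differences of -2.19 ± 0.11 over brain NSC and -2.40 ± 0.11 over iPS. Zfp704 (-2.40 ± 0.09 over brain NSC), Zfp871 (-2.26 ± 0.12) and Zfp629 (-2.17 ± 0.19) complete the 8 largest falls, and each also fell over the labelled iPS, with differences of -2.48 ± 0.10, -1.72 ± 0.12 and -2.24 ± 0.20. Their other probe sets did not all give these calls. The second probe set of Zfp704 differed by -0.01 over brain NSC and was not called, but was called lower over the labelled iPS (-1.66). Of the 2 others of Zfp871, 1 was called lower over brain NSC (-1.81) and 1 was not (-0.63). The second of Zfp629 was not called over brain NSC (-0.37) or over iPS (-0.61).

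Of the 2 imprint keepers, Zfp57 rose and Zfp445 did not. Zfp57, which holds DNA methylation at imprinted regions in mouse embryos and embryonic stem cells, had log2 signals of 8.35, 8.60 and 8.46 in the labelled iPS-derived NSC, 5.64, 5.69 and 5.55 in the labelled iPS and 5.59, 5.09, 5.27 and 5.82 in brain NSC. All 3 first-named arrays lay above the floor and all 7 others below it, with differences of 3.03 ± 0.15 over brain NSC and 2.84 ± 0.16 over iPS. Zfp445, which shares that function, had 10.74, 10.69 and 10.75, against 11.01, 10.92 and 10.97 in the labelled iPS and 10.69, 10.70, 10.76 and 10.61 in brain NSC, a difference of 0.04 ± 0.08 over brain NSC (adjusted p = 0.697 by limma) and -0.24 ± 0.09 over iPS.

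Of 4 genes listed for silencing of retroviral and other elements, Zfp819 and Zfp568 rose over both other groups and the others did not pass 2-fold, beside the same 11.3% and 10.8% higher among all genes. Zfp819, reported to hold down transposable elements in mouse pluripotent cells, had 8.66, 8.65 and 8.88 in the labelled iPS-derived NSC, 4.24, 4.28 and 4.23 in the labelled iPS and 4.46, 4.32, 4.36 and 4.38 in brain NSC. The rise was 4.35 ± 0.09 log2 units over brain NSC and 4.48 ± 0.09 over iPS, on a single probe set that can cross-hybridise. Zfp568, known in mouse for repressing a placental Igf2 transcript rather than a retrovirus, had 11.21, 11.35 and 11.27, against 8.17, 8.05 and 8.09 in the labelled iPS and 8.44, 8.31, 8.37 and 8.09 in brain NSC, and rose by 2.98 ± 0.10 over brain NSC and 3.17 ± 0.10 over iPS. Here the gene was already above the floor in all 10 arrays.

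Zfp809 binds the primer site of murine leukaemia proviruses and recruits Trim28 to them. It had 8.80, 8.71 and 8.72 in the labelled iPS-derived NSC, 8.15, 7.75 and 8.04 in the labelled iPS and 8.29, 8.21, 8.25 and 7.91 in brain NSC. The groups did not overlap between the labelled iPS-derived NSC and either other group, but the difference was 0.58 ± 0.12 over brain NSC (1.49-fold) and 0.76 ± 0.13 over iPS (1.70-fold). Zfp932, a repressor of endogenous retroviruses, differed by 0.35 ± 0.10 over brain NSC and 0.18 ± 0.10 over iPS.

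Among the pluripotency-linked genes, 3 of 5 measured rose over both other groups, beside 11.3% higher over brain NSC and 10.8% over iPS among all genes. Zfp296, which raises reprogramming efficiency in mouse cells, had 9.45, 9.30 and 9.60 in the labelled iPS-derived NSC, 5.15, 5.45 and 5.65 in the labelled iPS and 5.53, 5.08, 5.49 and 5.46 in brain NSC, and rose by 4.06 ± 0.14 over brain NSC and 4.04 ± 0.15 over iPS. Zfp281, a partner of Nanog, was bright in all groups and rose by 1.36 ± 0.09 and 1.20 ± 0.09, with means of 10.69 in the labelled iPS-derived NSC, 9.49 in the labelled iPS and 9.33 in brain NSC. Zfp462 rose by 1.31 ± 0.12 over brain NSC and 1.5 ± 0.13 over iPS, a second probe set was also called higher (1.55 and 1.18), and the dimmest was not (0.85 and 0.75). Zfp217 differed by 0.84 ± 0.10 and 0.99 ± 0.11, just under 2-fold, and Zfp322a, which the symbol rule does not take, by -0.17 ± 0.11 and 0.04 ± 0.12.

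Genes with neural or glial roles went both ways, with 2 higher and 5 lower over brain NSC among 11 measured, and 3 higher and 4 lower over the labelled iPS. The shares over all genes were 11.3% higher and 14% lower over brain NSC and 10.8% and 14.4% over iPS. Zfp521, Zfp703 and Zfp503, described above, were joined by Zfp365 and Zfp24. Zfp365 had 7.23, 6.86 and 7.13 in the labelled iPS-derived NSC, 8.30, 8.26 and 8.34 in the labelled iPS and 8.50, 8.52, 8.40 and 8.63 in brain NSC, a difference of -1.44 ± 0.10 over brain NSC and -1.23 ± 0.11 over iPS. Its dimmer probe set gave -0.41 and -0.07 and was not called. Zfp24 (Zfp191), needed for myelination by oligodendrocytes in mouse, fell by 1.01 ± 0.09 over brain NSC, near the 2-fold limit, and differed by -0.71 ± 0.10 over iPS without being called.

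Zfp423 was among the neural or glial genes that rose. This partner of Ebf factors, known from cerebellar development and from fat cell precursors, had 9.36, 9.37 and 9.63 in the labelled iPS-derived NSC, 6.09, 6.30 and 6.21 in the labelled iPS and 5.88, 5.52, 5.33 and 5.88 in brain NSC. It rose by 3.80 ± 0.14 over brain NSC and 3.25 ± 0.15 over iPS. The part of feeder cells in this rise was not tested. Zfp110, an interactor of the neurotrophin receptor p75, also rose, with 10.67, 10.85 and 10.70, against 8.57, 8.25 and 8.42 in the labelled iPS and 8.49, 8.53, 8.46 and 7.97 in brain NSC. Its 3 probe sets gave rises of 2.38, 2.42 and 2.10 over brain NSC.

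Zfp369, the relative of Zfp110, differed by 0.44 ± 0.08 over brain NSC and was not called, nor were Zfp335 (-0.08 ± 0.16), which neural progenitors need to divide, and Zfp536 (0.38 ± 0.09), a repressor of neuronal differentiation. Zfp292 differed by 0.12 ± 0.11 over brain NSC, with overlapping groups, and rose by 1.03 ± 0.12 over the labelled iPS. That call is of the brightest of its 6 probe sets, and the others did not all give it.

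Among 9 measured genes with roles in RNA, the ribosome or the spindle, 1 rose and 1 fell over each other group, which is near the shares over all genes (11.3% higher and 14% lower over brain NSC, 10.8% and 14.4% over iPS). The riser was Zfp622 (1.20 ± 0.16 over brain NSC and 1.58 ± 0.17 over iPS), and 2 of its 4 other probe sets were called with it. The one that fell was Zfp326, a factor that couples splicing to transcription, with 7.93, 8.0 and 8.01 in the labelled iPS-derived NSC, 9.89, 9.54 and 9.78 in the labelled iPS and 9.99, 9.91, 9.98 and 9.83 in brain NSC. Its difference was -1.95 ± 0.10 over brain NSC and -1.76 ± 0.10 over iPS.

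The other 7 stayed under 2-fold in all 3 comparisons. Zfp598, the ubiquitin ligase that senses collided ribosomes, differed by 0.92 ± 0.14 over brain NSC, and Zfp36 (tristetraprolin), which promotes decay of AU-rich messenger RNA, by 0.72 ± 0.11. Zfp638, which silences incoming retroviral DNA, differed by 0.41 ± 0.11 over brain NSC, the splicing protein Zfp830 by 0.73 ± 0.09 and the double-stranded RNA binder Zfp346 by 0.25 ± 0.11. Zfp106 differed by -0.10 ± 0.11 on its brightest probe set, while 3 of its 4 dimmer probe sets were called higher over brain NSC, by 1.13, 1.29 and 3.20.

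**Figure D3:**
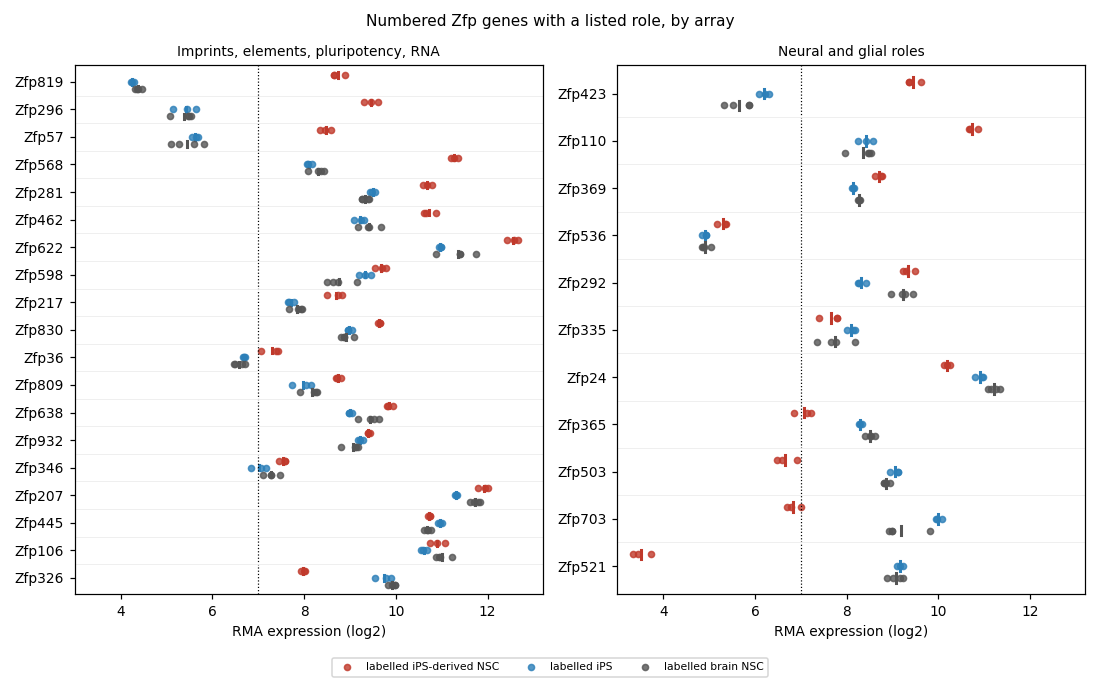
RMA log2 signal of 30 numbered Zfp genes with a listed role, with 1 point per array, ticks at group means and a dotted line at the floor of 7. Zfp819, Zfp296 and Zfp57 lie above the floor only in the labelled iPS-derived NSC, Zfp521 and Zfp503 only in the 2 other groups, and Zfp423 stands with the first.

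The labelled iPS arrays and brain NSC differed in few of these genes. Zfp946, Zfp758, Zfp58, Zfp667, Zfp820 and Zfp938 fell in the labelled iPS arrays over brain NSC, and Zfp397 and Zfp771 rose. Zfp946 had log2 signals of 6.49, 6.48 and 6.53 in the labelled iPS-derived NSC, 6.25, 6.11 and 6.13 in the labelled iPS and 8.37, 8.0, 8.14 and 7.50 in brain NSC. Both these groups lay below all 4 brain arrays, by -1.84 ± 0.16 log2 units for the labelled iPS (adjusted p = 7.32e-06 by limma) and -1.51 ± 0.16 for the labelled iPS-derived NSC.

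Zfp758 showed the same arrangement, with 6.40, 6.80 and 6.28 in the labelled iPS-derived NSC, 6.38, 6.31 and 6.19 in the labelled iPS and 8.45, 8.16, 8.21 and 7.55 in brain NSC. It was called lower, by -1.80 ± 0.18 in the labelled iPS and by -1.60 ± 0.18 in the labelled iPS-derived NSC, both over brain NSC. Zfp943, whose start window is nearly that of Zfp758, had means of 6.33 in the labelled iPS-derived NSC, 7.53 in the labelled iPS and 8.48 in brain NSC, and its difference of -0.95 ± 0.15 in the labelled iPS over brain NSC missed the 2-fold limit. Zfp938 differed by -1.02 ± 0.17 in the labelled iPS over brain NSC and by -0.96 ± 0.17 in the labelled iPS-derived NSC, where it was not called.

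Zfp58 and Zfp667 were low in the labelled iPS arrays alone. Zfp58 had 7.17, 7.22 and 6.82 in the labelled iPS-derived NSC, 5.48, 5.74 and 5.37 in the labelled iPS and 7.42, 7.37, 7.01 and 6.62 in brain NSC. The labelled iPS differed by -1.57 ± 0.18 over brain NSC while the labelled iPS-derived NSC differed by -0.03 ± 0.18. Zfp667 had 8.63, 8.64 and 8.64 in the labelled iPS-derived NSC, 6.52, 6.57 and 6.71 in the labelled iPS and 8.02, 8.03, 7.98 and 7.72 in brain NSC. Its difference was -1.34 ± 0.10 in the labelled iPS over brain NSC and 2.04 ± 0.10 in the labelled iPS-derived NSC over iPS. Zfp820 lay under the floor in both groups, at 4.34 in the labelled iPS and 5.40 in brain NSC, a difference of -1.07 ± 0.14 among dim signals, with -0.13 on its other probe set.

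The 2 rises were less steady. Zfp397 had 8.70, 8.49 and 8.71 in the labelled iPS and 6.38, 6.67, 6.73 and 7.98 in brain NSC, where array 4 stood above the other 3, and the difference of 1.70 ± 0.30 came from 1 of 3 probe sets, the others giving -0.41 and 0.14. Zfp771 had 10.03, 10.27 and 10.10 in the labelled iPS and 8.52, 9.02, 8.75 and 10.15 in brain NSC, so the groups overlapped through array 4. Its difference of 1.02 ± 0.30 (adjusted p = 0.0284 by limma) came from probe sets that can cross-hybridise, and it was -0.10 on the brightest probe set that cannot.

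Calls of neighbouring genes were mixed in direction in some clusters and one-sided in others when the labelled iPS-derived NSC was compared with brain NSC. With neighbours defined as numbered Zfp genes within 1 Mb of each other, 19 clusters of at least 4 genes held 156 of the 304 genes and 103 of the 207. Calls over brain NSC went both ways in 7 of the 19 clusters and 1 way in 10, and 2 clusters held no call. Several of the 10 held only 1 call, which cannot go both ways, so the 10 are no measure of one-sidedness. In a chromosome 7 cluster of 13 genes 5 rose, with 1 difference below 0 and a median of 0.59 log2 units, and in a chromosome 8 cluster of 4 genes 3 rose, with 0 differences below 0 and a median of 1.49. These were picked from the 19 as one-sided examples, after their values were seen. Among all genes 11.3% were higher over brain NSC. Over the 932 genes of chromosome 8, 172 rose and 102 fell, with a median of 0.26 and 71.5% above 0. On chromosome 7, a run of 8 genes contained Zfp936, Zfp975, Zfp141 and Zfp819, called higher over brain NSC, beside Zfp788, called lower, and Zfp715, Zfp658 and Zfp719, not called. Zfp141 differed by 2.04 ± 0.17 log2 units, Zfp788 by -1.26 ± 0.14 (0.02 on its dimmer probe set), Zfp715 by 0.05 ± 0.15 and Zfp719 by -0.92 ± 0.11. Zfp141, Zfp715, Zfp658 and Zfp719 are named for their place in the run, after their values were seen.

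Of 82 numbered Zfp genes on chromosome 7, 24 rose and 7 fell over brain NSC, with a median of 0.27 log2 units. Over all 1413 genes of that chromosome 244 rose and 108 fell, also with a median of 0.27, and the Zfp genes there were not tested against the other genes. On chromosome 4, 6 of 14 rose and 2 fell with a median of 0.62, against 140 rises, 149 falls and a median of 0.17 over its 1087 genes, and Zfp979, Zfp982 and Zfp991 are 3 of the 6. On chromosome 17, 4 of 38 rose and 9 fell with a median of -0.35, against 102 rises, 96 falls and a median of 0.20 over its 834 genes.

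In the labelled iPS over brain NSC, the median difference lay below 0 in 9 of the 19 clusters and above 0 in 10. In the chromosome 17 cluster of 22 genes that holds Zfp758, Zfp943 and Zfp946, 16 differences were below 0. The cluster had a median of -0.39 log2 units and 3 calls, all lower, beside 0.89% lower among all genes. Over the 834 genes of the chromosome the median was 0.03, with 57% above 0. In a chromosome 13 cluster of 12 genes that holds Zfp58, all 12 were below 0, with a median of -0.31 and 1 call. Over the chromosome's 702 genes the median was -0.04, with 41.7% above 0. The 8 genes of the chromosome 7 run were also all below 0, from -0.63 to -0.04, with 0 called by limma and 2 at an unadjusted p under 0.05, both of them also at an adjusted p under 0.05. For this count too, no share of all genes without the fold limit was taken. Over all 1413 genes of chromosome 7, 55.9% were above 0. The clusters named here were picked after their values were seen. Other clusters lay above 0, with medians of 0.39 in 5 genes of chromosome 15, none of them below 0, and of 0.37 in 6 and 0.35 in 9 genes of chromosome 7, each with 1 difference below 0. Genes of a cluster can share probe sequence, so their values are not independent, and no test of a cluster was made.

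On chromosome 8 the shift ran the other way, with 19 of 22 Zfp genes above 0, a median of 0.41, and 0 called in the labelled iPS over brain NSC. Of these 22, 15 had an unadjusted p under 0.05 by limma and the same number an adjusted p under 0.05, all under 2-fold. The share of all genes at that p without the fold limit was not taken, so no excess can be read from this count. With the fold limit, 37 of the 932 genes of the chromosome were called higher and 1 lower. All 932 genes of chromosome 8 had a median of 0.18 with 74% above 0, and the 282 numbered Zfp genes on other chromosomes had a median of -0.05. Zfp319 (0.86 ± 0.14), Zfp703 (0.81 ± 0.18) and Zfp90 (0.72 ± 0.13) had the highest differences there. Zfp868 had 8.36, 8.15 and 8.33 in the labelled iPS and 7.78, 7.83, 7.77 and 7.63 in brain NSC, groups that did not overlap, for a difference of 0.53 ± 0.09. The chromosome was picked because it had already stood out in these data. On chromosome 14 there were 4 genes, all above 0, with a median of 0.19. Over the 641 genes of that chromosome the median was 0.01, with 52.3% above 0.

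**Figure D4:**
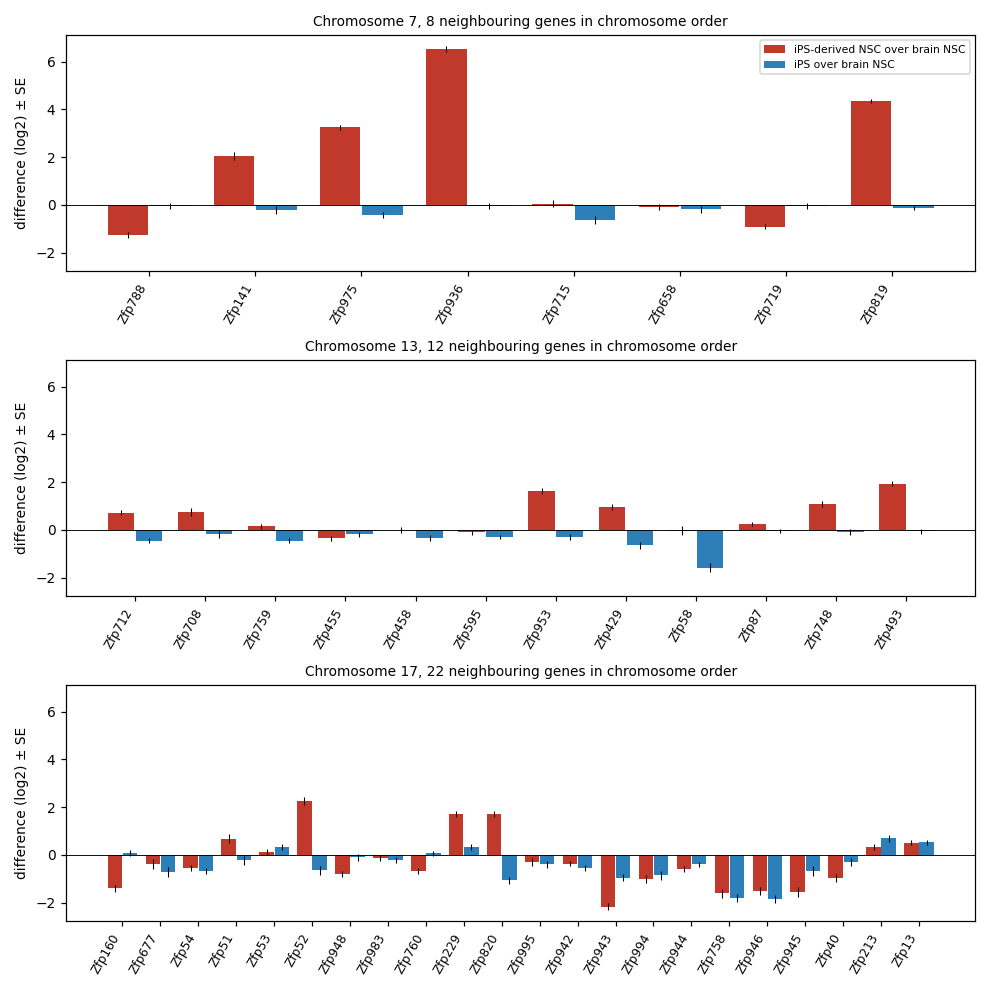
Differences in log2 units (bars, with the moderated SE) for neighbouring numbered Zfp genes in chromosome order, in runs of 8 on chromosome 7, 12 on chromosome 13 and 22 on chromosome 17. Bars for the labelled iPS-derived NSC over brain NSC differ between neighbours from -2.16 to 6.53, and bars for the labelled iPS over brain NSC are mostly small and below 0.

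The partners of KRAB zinc finger proteins were read in the same arrays. Each value is that of the gene's brightest probe set, and agreement with its other probe sets was not checked. For several genes, Trim28, Cbx1, Hdac2, Dnmt3b, Dnmt3l and Morc3 among them, that probe set can cross-hybridise. Of 26 measured cofactor and silencing genes, 11 rose and 2 fell in the labelled iPS-derived NSC over brain NSC, and 10 rose and 2 fell over the labelled iPS. Among all genes 11.3% were higher and 14% lower over brain NSC, and 10.8% and 14.4% over iPS. By limma 0 of the 26 were called in the labelled iPS over brain NSC, where 10 had an unadjusted p under 0.05 and 5 an adjusted p under 0.05, all under 2-fold. No share of all genes without the fold limit was taken to set beside these counts. The medians were 0.42, 0.38 and 0.07 log2 units, beside 0.13, 0.12 and 0.01 over all genes.

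Trim28, the corepressor that KRAB domains bind, had 14.01, 13.95 and 13.96 in the labelled iPS-derived NSC, 12.56, 12.50 and 12.56 in the labelled iPS and 12.13, 12.18, 12.29 and 12.74 in brain NSC. It was bright in all 10 arrays and rose by 1.64 ± 0.13 log2 units over brain NSC and 1.43 ± 0.14 over iPS. Its relatives Trim24 and Trim33 rose too, by 2.08 ± 0.10 and 1.23 ± 0.09 over brain NSC and by 1.81 ± 0.10 and 1.46 ± 0.09 over iPS. Setdb1, the methyltransferase brought in by Trim28, had means of 9.43 in the labelled iPS-derived NSC, 9.22 in the labelled iPS and 9.14 in brain NSC, a difference of 0.30 ± 0.10 over brain NSC that was not called.

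The widest differences were those of the de novo DNA methylation machinery. Dnmt3l, the catalytically inactive cofactor, had 12.15, 11.74 and 11.96 in the labelled iPS-derived NSC, 4.62, 4.70 and 4.52 in the labelled iPS and 4.73, 4.68, 4.47 and 4.55 in brain NSC. The rise was 7.34 ± 0.11 over brain NSC, with 6.25 ± 0.12 for Dnmt3b and 5.02 ± 0.10 for Dnmt3a. Dnmt1, the maintenance enzyme, differed by -0.07 ± 0.09 and its partner Uhrf1 by 0.24 ± 0.11, neither called.

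The deacetylases of the NuRD complex went opposite ways on their brightest probe sets. Hdac1 had 12.19, 12.08 and 12.00 in the labelled iPS-derived NSC, 10.76, 10.56 and 10.65 in the labelled iPS and 10.16, 10.40, 10.19 and 10.43 in brain NSC, and rose by 1.79 ± 0.10 over brain NSC. Hdac2 had 10.53, 10.60 and 10.44, against 11.93, 11.86 and 11.99 in the labelled iPS and 11.55, 11.68, 11.80 and 11.93 in brain NSC, and fell by 1.21 ± 0.10. That probe set of Hdac2, 1 of 3, can cross-hybridise. Of the genes for heterochromatin protein 1, Cbx1 rose by 1.07 ± 0.12 over brain NSC, Cbx3 differed by 0.46 ± 0.13 and Cbx5 by -0.96 ± 0.14, neither called. The only probe set of Cbx3 was dim, with means of 6.75 in the labelled iPS-derived NSC, 6.33 in the labelled iPS and 6.29 in brain NSC.

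Daxx (1.80 ± 0.12 over brain NSC), Morc3 (1.96 ± 0.12) and the remodeller Smarcad1 (1.13 ± 0.10) rose, while Atrx, the partner of Daxx, differed by 0.27 ± 0.08 and was not called. Within the HUSH silencing complex, Pphln1 had 8.21, 8.23 and 8.20 in the labelled iPS-derived NSC, 9.87, 10.05 and 9.84 in the labelled iPS and 9.87, 9.95, 9.74 and 9.88 in brain NSC, a difference of -1.65 ± 0.09 over brain NSC, called lower, whereas Mphosph8 differed by 0.13 ± 0.11. Ehmt2 spread over 0.62 log2 units (SD, n = 4) in brain NSC, where array 4 was highest, and was not called in any comparison.

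**Figure D5:**
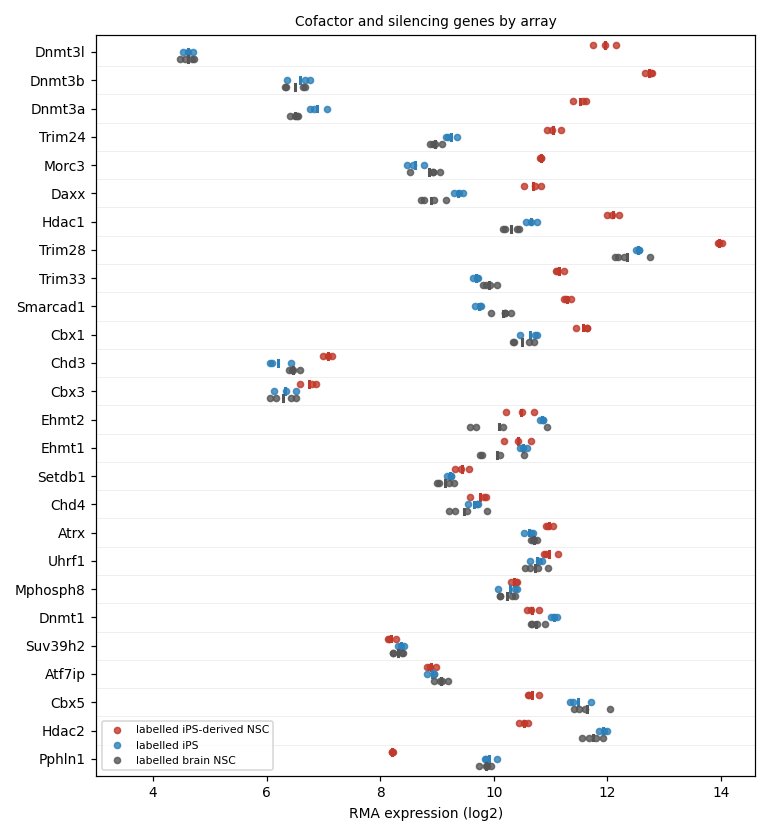
RMA log2 signal of 26 cofactor and silencing genes, with 1 point per array and ticks at group means, ordered by the difference between the labelled iPS-derived NSC and brain NSC. Dnmt3l, Dnmt3b and Dnmt3a are separated by over 4 log2 units, Trim28 and Hdac1 by 1 to 2, and Hdac2 and Pphln1 lie lower in the labelled iPS-derived NSC.

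Several of the 207 genes carry more than 1 probe set, and these did not always give the same call. A single probe set stood for 92 genes and several for 115, with 7 at most, and the brightest could cross-hybridise for 31. Of 58 called genes with other probe sets in the labelled iPS-derived NSC over brain NSC, all probe sets had the same sign for 43 and were all called alike for 16. For Zfp451 (a SUMO ligase), Zfp652 and Zfp266, a dimmer probe set was called the opposite way. Zfp451 rose by 1.58 ± 0.09 log2 units on its brightest probe set and differed by -1.03 to -2.65 on the 4 others, so its direction depends on the probe set. RMA values carry no detection calls, and these cases were kept with the brightest probe set as the rule states.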

How the data were processed

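Total RNA of 10 samples was measured on 10 Affymetrix mouse arrays, in 3 groups taken from the sample titles. The authors deposited 1 log2 value per probe set and array. These came from RMA, per the submitters' processing notes, run in Bioconductor software, per the labels, with its version not given in the sources used here. This method corrects background, makes array distributions alike and summarises probes, which compresses differences among dim genes and removes shifts shared by most genes. Scanner files were not used here, so background correction was not varied, and arrays have no read depth, so their number limits the precision.

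Of 45101 probe sets, 64 were controls, 34945 had 1 gene symbol, 932 had several and 9160 had none, by the platform annotation. Each of 18193 genes was represented by the probe set with the highest mean over the 10 arrays. Differences were fitted with limma 3.58.1 (lmFit, eBayes) in R 4.3.3 over all 10 arrays, with 7 residual and 5.95 prior degrees of freedom, after a test on simulated data. P-values are two-sided, with Benjamini-Hochberg adjustment over the 18193 genes. Errors of differences are moderated standard errors (SE), and ± without another word gives the SE. Chromosomes and gene order came from a RefSeq table of GRCm38.p6, whose coordinates are printed only for its own start windows. Windows were aligned with Biopython 1.88, tables were made with Python 3.11.15, pandas 2.3.3 and numpy 2.4.6 and figures with matplotlib 3.10.9.

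Named genes were, per comparison, the 8 largest rises and falls among called genes at the floor whose arrays do not overlap, the 3 with the highest and the 3 with the lowest mean, the 3 on either side of the floor, all measured genes of the role and cofactor lists, genes whose probe sets disagree, and genes on chromosomes 8 and 14. The members and lists were chosen with earlier results of these data known. Cofactor genes not matched by symbol included Suv39h1, Fam208a and Sumo2, and role symbols not matched were Zfp143, Zfp488, Zfp191, Zfp238, Zfp260 and Zfp706. Of these, Zfp191 is another name of Zfp24, which was measured under that symbol. Of the other marker lists, 1 of 5 neuronal genes (Stmn2) and 1 of 4 endothelial genes (Pecam1) were called higher over brain NSC by limma. Stmn2 averaged 10.05 in the labelled iPS-derived NSC and 5.15 in brain NSC, and Pecam1 7.67 and 4.16. No call fell on the other neuronal and endothelial genes, and 0 of 5 microglial genes were called. Among all genes 11.3% were higher and 14% lower. Alternatives were the mean of probe sets, leaving out probe sets that can cross-hybridise, quantile normalization, median centring, only the arrays compared, a trended robust prior, a test against 1.5-fold, a filter on the mean, a replicate block and leaving out each array.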

Additional observations from a re-analysis of the deposited data

Results flagged for a closer look

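In brain NSC, the one group of 4 arrays, 134 named or cofactor genes were checked for an array far from the other 3, by Dixon's ratio of the gap to the range, against its 95% critical value. Such a check marks about 1 in 20 groups by chance, and 8 genes were marked, 7 of them for array 4. In array 4, Zfp110 had a log2 signal of 7.97 (other arrays 8.46 to 8.53), Zfp160 7.45 (7.93 to 7.99), Zfp266 9.63 (10.05 to 10.06), Zfp473 5.15 (5.48 to 5.53) and Zfp932 8.81 (9.11 to 9.17), all below the others. Zfp334 at 9.15 (8.89 to 8.93) and Zfp703 at 9.82 (8.92 to 9.0) lay above them in the same array. Zfp296 was low in brain NSC array 2, at 5.08 (5.46 to 5.53).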

How the results depend on the processing

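The counts over the 304 genes moved by over 1.5 times in few settings. With genes limited to a mean of at least 7, the rises came to 28 in the labelled iPS-derived NSC over brain NSC (54 without the limit) and 29 over iPS (59), and the falls in the labelled iPS over brain NSC to 2 (6), since fewer genes were tested. The 2 rises in the labelled iPS over brain NSC became 0 with the mean of probe sets, 1 when probe sets able to cross-hybridise were dropped, and 0 in a test against 1.5-fold. Replicate numbers did not pair the samples, with correlations of same-numbered deviations from -0.21 to 0.133, and with the number as a replicate block these rises came to 4.

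Leaving out 1 array at a time gave 53 to 55 rises and 43 to 51 falls in the labelled iPS-derived NSC over brain NSC, 56 to 62 and 46 to 50 over iPS, and 1 to 4 and 4 to 8 in the labelled iPS over brain NSC. In the last comparison the rises were 4 without brain NSC array 4 and 1 without iPS array 1 or 3 or brain NSC array 1, 2 or 3. The cause was not tested.

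Single genes changed direction in 6 cases. With the mean of probe sets, Zfp106 differed by 1.12 over brain NSC (-0.10 on its brightest), Zfp652 by -0.06 (1.16), and Zfp451 by -1.17 over brain NSC (1.58) and -0.89 over iPS (1.31), because their probe sets disagree. Without probe sets that can cross-hybridise, Zfp46 differed by 0.22 in the labelled iPS-derived NSC over brain NSC (-1.39) and Zfp771 by -0.10 in the labelled iPS over brain NSC (1.02). Of 147 called differences among the 324 of the 108 named numbered genes, 86 held their call in every setting run. Many of these genes were named because their probe sets disagree, and with the mean of probe sets 49 calls were lost. The 86 therefore do not describe how steady the whole set is. RMA gives no detection calls, so dim genes have no limit of detection here.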
